A study of Mus musculus with 12 samples.

Results

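A set of 9 long noncoding RNAs (lncRNAs) that are well known from brain tissue was followed through the oligodendrocyte precursor cell (OPC) libraries of this study: Malat1, Neat1, Meg3, Rian, Miat, Snhg11, Gas5, Pantr1 and Mirg. They are taken by gene name, from a list drawn up with earlier results of these data known, and all 9 were found by symbol among the 30165 genes of the OPC table. All 9 passed the expression filter (normalized count averaging 10 or more over the libraries), which kept 17364 genes. The neuron table of the same series holds 66298 transcripts, every one with an mRNA accession, and 0 of the 9 lncRNAs are in it, so the account below concerns the libraries labelled OPC.

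OPCs were sorted from the cortex of mice on magnetic beads that carried antibodies to O4, NG2 and CD140, the first of which also marks later oligodendrocyte stages, with 3 libraries of control (ctl) mice, labelled WT, and 3 of double knockout (dKO) mice, labelled dko. In dKO mice both L-type calcium channel genes Cacna1c (Cav1.2) and Cacna1d (Cav1.3) carry floxed exons, and an NG2-driven, tamoxifen-dependent Cre removes these in OPCs. NG2 is also made by pericytes, so the driver is not limited to OPCs. The general protocol is an intraperitoneal tamoxifen dose (100 mg/kg) on each of postnatal days 7 and 8. Each library pooled 2 mice, 6 mice per group. Which Cre and floxed alleles the ctl mice carried, whether they received tamoxifen, and the age at sorting are not given in the sources used here. Nothing says that the pools were processed on separate days, so p-values measure the spread between these pools.

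An lncRNA is a long transcript that is not translated into a protein. Many act in the nucleus: Malat1 collects in nuclear speckles, bodies rich in splicing factors, and the long form of Neat1 is the scaffold around which paraspeckles are built. Meg3, Rian and Mirg are read from the maternal copy of the imprinted Dlk1-Dio3 region, and Rian and Mirg are processed into clusters of C/D box snoRNAs and miRNAs. Gas5 also carries snoRNAs in its introns, and its spliced RNA is degraded while the cell translates actively. Miat and Malat1 are known in neurons and glia, Snhg11 in neurons, and Pantr1 lies beside the neural transcription factor gene Pou3f3.

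How these RNAs end bears on how the libraries saw them, because RNA was captured on oligo(dT) beads. The 3′ ends of Malat1 and of the long Neat1 form are not made by polyadenylation but by a cut next to a tRNA-like fold, and are protected by a triple helix of U-rich and A-rich stretches. The short Neat1 form is polyadenylated in the usual way. The ends are shown from the GENCODE M21 transcripts (GRCm38), written with T for U. In the first pair, capitals mark every run of at least 10 bases that both windows share. In the short form, capitals mark the polyadenylation signal.
Neat1 long form, bases 20672 to 20771, the last 100 of 20771: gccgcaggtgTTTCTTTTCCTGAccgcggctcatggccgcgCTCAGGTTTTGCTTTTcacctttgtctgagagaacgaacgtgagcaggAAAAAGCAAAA
Malat1, bases 6592 to 6691 of 6983: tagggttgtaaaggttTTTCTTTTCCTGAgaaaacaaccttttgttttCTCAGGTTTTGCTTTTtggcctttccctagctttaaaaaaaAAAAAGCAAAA
Neat1 short form, bases 2905 to 3004, the last 100 of 3004: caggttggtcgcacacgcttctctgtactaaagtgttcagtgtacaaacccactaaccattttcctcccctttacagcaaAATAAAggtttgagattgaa
The windows share 3 runs, of 13, 16 and 11 bases, in the same order, and each occurs once in either transcript. The third run ends both windows, and it is the last stretch of the annotated long Neat1. In Malat1 the annotated transcript goes on for 292 bases, and the first bases of the run belong to a stretch of 12 adenines. Each gene had 1 count per library, so the count of Neat1 did not separate its short form from the long one.

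The genes lie in 6 places of the genome. The labels give the build mm39, and the methods name GRCm38; the start and end in the table equalled the GRCm38 annotation for 0 of the 9 genes, and positions are given as the table has them. Malat1 (chr19:5845717-5852704) and Neat1 (chr19:5874736-5895898), both on the minus strand, are separated by 22031 bases. Meg3 (chr12:109506879-109538165), Rian (chr12:109570242-109628150) and Mirg (chr12:109696198-109715894) follow each other on the plus strand. Gas5 (chr1:160861992-160866116, plus strand) and Pantr1 (chr1:42629754-42734584, minus strand) are far apart on chromosome 1. Miat (chr5:112361094-112377261) is on the minus strand and Snhg11 (chr2:158217558-158228071) on the plus strand. The table classes Snhg11 as protein-coding and the other 8 as lncRNA. The library kit does not mark strand, so reads from overlapping genes on opposite strands cannot be told apart. On the opposite strand, Neat1 overlapped Frmd8os by 248 bases, Gas5 overlapped Zbtb37 by 428, and Pantr1 overlapped Pou3f3 and Gm20646 by 500 each and 4930420N18Rik by 676. On the same strand, 75 bases of Rian were those of the snoRNA gene Gm24564, which had 0 to 2 reads per library. Frmd8os had 0 to 25 reads per library beside at least 11543 for Neat1, while Pou3f3 had 1920 to 3629 beside 166 to 325 for Pantr1.

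The libraries held 14935963 to 19812274 counted reads. dKO replicate 2 stood apart: it had 13595 normalized counts of Xist, the X-inactivation RNA, against 2.93 to 20.2 in the other 5, and 0 of the Y-linked Ddx3y, against 2141 to 2502. For many of the results below, values without it are also given. Cacna1c averaged 407.4 normalized counts in ctl and 300.4 in dKO, and the groups did not overlap; its adjusted p was 0.349 by edgeR's quasi-likelihood test, as was 0.531 for Cacna1d. The label OPC does not cover all that the libraries held, as oligodendrocyte markers were high in every library: the summed FPKM (reads scaled to exon length and to library total) of 12 of them ran from 9935 to 17230, against 408 to 811 for 10 OPC markers. Microglia markers summed to 124 to 152 FPKM in ctl and 172 to 480 in dKO, and astrocyte markers to 167 to 299 in ctl and 301 to 832 in dKO. Neither list overlapped between the groups, and all 12 microglia and 10 of 11 astrocyte markers were higher in dKO at an unadjusted p under 0.05, beside 6.27% of all tested genes. The median log2 fold change of the astrocyte list was 1.16, and 0.66 with 8 such genes when dKO replicate 2 was left out. Of the 10 OPC markers 7 were above 0, with a median of 0.51, and 1 had such a p. Over all tested genes 49.2% were below 0. The OPC median was 0.05 when dKO replicate 2 was left out, and 5 genes had such a p when dKO replicate 3 was.

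Per length, 3 of the members stood clear of the rest. Malat1 was at 295 FPKM over the 6 libraries, the highest lncRNA of the table and rank 72 among all genes. Neat1 followed at 46.2 FPKM, rank 10 among lncRNAs, and Gas5 at 13.6 FPKM, rank 33. The ranges of these 3 genes over the libraries overlapped neither each other nor those of the genes below. Meg3 (2.06 FPKM), Snhg11 (1.69), Pantr1 (1.48), Rian (1.14) and Miat (0.967) formed a group in which each range overlapped that of the next gene. All genes were read in the same libraries, so overlapping ranges do not show equal levels. Meg3 (1.55 to 2.44 FPKM) lay above Rian (0.918 to 1.4) in every library, and so did Pantr1 (1.19 to 1.97), whose range overlapped that of Rian. Mirg was lowest at 0.0959 FPKM, with 7 to 20 reads per library. FPKM divides by the summed exons of all annotated isoforms, which were 31981 bases for Rian and 6988 for Malat1, so a gene with many rarely used exons appears lower. The members together took 0.356 to 0.406% of reads in ctl and 0.209 to 0.352% in dKO, which did not overlap, while their summed FPKM of 380 to 471 in ctl and 246 to 391 in dKO did.

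**Figure D1:**
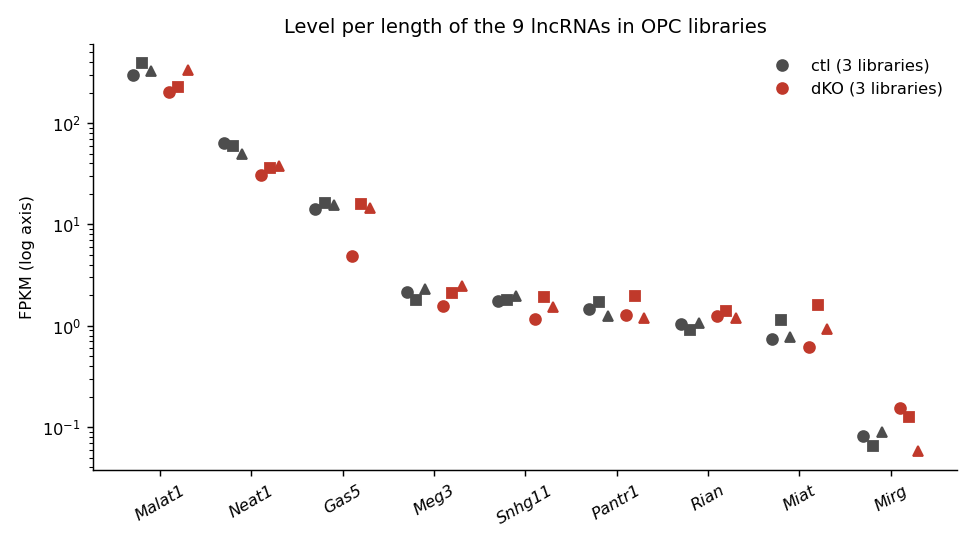
Level of each lncRNA in FPKM (log axis) in the 3 ctl (grey) and 3 dKO (red) libraries, with circles, squares and triangles for replicates 1, 2 and 3. Malat1, Neat1 and Gas5 lie above the other 6, and Mirg lies below all others.

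Set against ctl, Neat1 was lower and Rian was higher in dKO, in edgeR by the unadjusted p only, and the groups did not overlap for either gene. The other 7 overlapped between the groups. No member passed a Benjamini-Hochberg adjusted p under 0.05 in edgeR's quasi-likelihood test, which called 1 gene (0.00576% of those tested). That gene, 1520401A03Rik, is named here after its values were seen. At an unadjusted p under 0.05, 2 of the 9 members were found, beside 11.5% of all tested genes. The 1 lower member stands beside 5.27% of all genes that were lower, and the 1 higher member beside 6.27% that were higher. For 17.0% of all tested genes the groups did not overlap. DESeq2, the authors' tool, called 1.69% of the tested genes at an adjusted p under 0.05, and of the members Neat1 only. In these bulk libraries fewer cells of a type and less RNA per cell cannot be told apart.

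**Figure D2:**
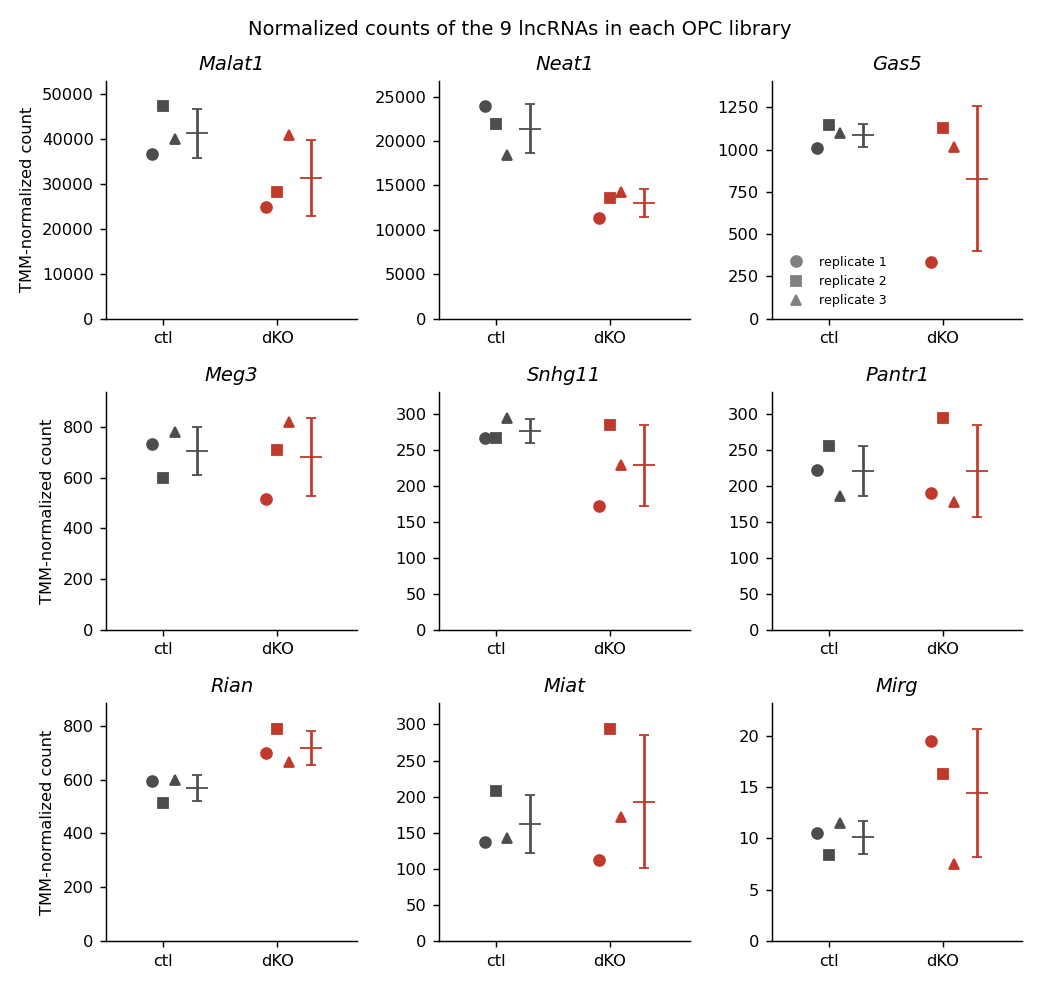
Normalized count (reads after TMM scaling, linear axes from 0) of each lncRNA in every OPC library, with circles, squares and triangles for replicates 1, 2 and 3 and the mean ± SD of each group beside the points. For Neat1 every dKO library lies below every ctl library, for Rian every dKO library lies above, and the other panels overlap.

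Neat1, the paraspeckle scaffold, had normalized counts of 23894, 21928 and 18375 in ctl replicates 1, 2 and 3 and of 11281, 13586 and 14225 in dKO replicates 1, 2 and 3. The lowest ctl library was above the highest dKO library. The means were 21399 ± 2797 and 13031 ± 1549 (SD, n = 3 libraries each), a log2 fold change of -0.72 with an SE of 0.17 and a 95% interval of -1.10 to -0.33, or 0.609 of the ctl level. The edgeR p was 0.00249 before and 0.283 after adjustment over all genes, and Neat1 ranked 150 of 17364 by p. The exact permutation test, two-sided, gave p = 0.1, the smallest that 3 libraries against 3 allow. DESeq2 gave the same log2 fold change with an adjusted p of 0.00199. With any 1 library left out the log2 fold change stayed between -0.82 and -0.62, with unadjusted p from 0.00238 to 0.0123 and adjusted p from 0.164 to 0.779. Without dKO replicate 2 it was -0.75.

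Malat1, the speckle RNA that lies next to Neat1, had 36593, 47234 and 39889 normalized counts in ctl and 24866, 28095 and 40791 in dKO. Replicates 1 and 2 of dKO were below all ctl libraries, and dKO replicate 3 lay within their range. The log2 fold change was -0.40 with an SE of 0.23 and an interval of -0.93 to 0.13 (edgeR adjusted p = 0.539). Leaving out dKO replicate 3 gave -0.65 (edgeR adjusted p = 0.385), leaving out dKO replicate 2 gave -0.33, and leaving out dKO replicate 1 gave -0.26. The unadjusted p of the first and the last, from edgeR's quasi-likelihood test, were 0.00882 and 0.331. The ratio of Neat1 to Malat1 reads, which no scaling of the libraries changes, was 0.653, 0.464 and 0.461 in ctl and 0.454, 0.484 and 0.349 in dKO. These ratios overlapped between the groups.

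Rian, the snoRNA host of the imprinted region, had 595, 512 and 599 normalized counts in ctl and 701, 789 and 665 in dKO. All dKO libraries were above all ctl libraries. The log2 fold change was 0.34 with an SE of 0.12 and an interval of 0.06 to 0.61, a 1.26-fold level (edgeR p = 0.022 unadjusted, 0.366 adjusted; two-sided exact permutation p = 0.1). The unadjusted p stayed below the threshold in 4 of 6 fits with 1 library left out. Without ctl replicate 2 it was 0.0741, with a log2 fold change of 0.27, and without dKO replicate 2 it was 0.0742, with 0.26.

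Meg3 and Mirg are read from the same strand of the same region as Rian. Meg3 had 735, 598 and 779 normalized counts in ctl and 515, 710 and 822 in dKO, and the highest and the lowest library were both dKO. Its log2 fold change was -0.05 with an interval of -0.46 to 0.37 (edgeR adjusted p = 0.944), and without dKO replicate 1 it was 0.12. Mirg, a host of miRNAs, had 12, 7 and 11 raw reads in ctl and 20, 18 and 7 in dKO, and its interval of -0.57 to 1.60 around a log2 fold change of 0.51 was the widest of the members. With 1 library left out this fold change was 0.24 (dKO replicate 1) to 0.80 (dKO replicate 3). RefSeq places 10 miRNA hairpins within Mirg, 3 within Rian and 1 within Meg3, and the table has a row for none of them. The ratio of Rian to Meg3 reads was 0.81, 0.857 and 0.768 in ctl and 1.36, 1.11 and 0.81 in dKO. Thus dKO replicates 1 and 2 were above all ctl libraries, and dKO replicate 3 was within their range.

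Of the 10 genes listed for the Dlk1-Dio3 region, 7 were tested, with a median log2 fold change of 0.02 beside 0.01 over all tested genes. Rian alone of these 7 had an unadjusted p under 0.05, beside 11.5% of all tested genes. The count was 2 when ctl replicate 1 was left out, and 0 when ctl replicate 2 or dKO replicate 2 was; the median was -0.08 without dKO replicate 2. Rtl1, Dio3 and Dio3os had 20 to 30 reads over all 6 libraries and were not tested. Dlk1, the paternally expressed inhibitor of Notch signalling, had 357, 14.3 and 23.0 normalized counts in ctl and 42.0, 89.8 and 24.6 in dKO, so that ctl replicate 1 alone held most of it (log2 fold change -1.34, edgeR adjusted p = 0.65). The flanking Wars, Wdr25 and Begain had log2 fold changes of 0.05, -0.08 and 0.02, none with an unadjusted p under 0.05.

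Gas5 differed between the groups through 1 library. It had 1010, 1143 and 1101 normalized counts in ctl, and 337, 1130 and 1014 in dKO, so dKO replicate 1 was far below the other 5 libraries while the other dKO libraries lay within the ctl range. The log2 fold change was -0.39 with an interval of -1.22 to 0.44 (edgeR adjusted p = 0.71), and leaving out dKO replicate 1 gave -0.02, while leaving out dKO replicate 2 gave -0.68. Gas5 belongs to the 5′TOP RNAs, whose start is a C followed by pyrimidines, like that of ribosomal protein mRNAs. RefSeq gives 2 start regions for Gas5, and the upstream start does not begin with such a run (0 bases). The downstream start, which does, is shown because of that class, with the pyrimidine run from the first transcribed base in capitals, 30 bases before it and 30 from it on (GRCm38.p6, chr1:161035136-161035195, plus strand).
Gas5: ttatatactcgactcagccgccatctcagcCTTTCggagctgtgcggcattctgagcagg
A start of C and at least 4 further pyrimidines was found at 1 or more RefSeq starts of 3.01% of 27025 genes, of 5 of 29 ribosomal protein genes and of 2 of the 7 members with an entry, the other being Miat. A match is a description of the letters only. Of 40 genes of cytosolic ribosomal proteins all had a log2 fold change above 0, with a median of 0.28, and 7 were higher in dKO at an unadjusted p under 0.05, among them Rplp1 (0.46), Rps6 (0.44) and Rps4x (0.45). Their summed level was 4583, 4448 and 4809 FPKM in ctl and 6493, 5943 and 4641 in dKO. It was highest in dKO replicate 1, the library in which Gas5 was lowest. The sum was next highest in dKO replicate 2, in which Gas5 lay within the ctl range. Whether Gas5 and the ribosomal protein genes vary together was not tested. The number with an unadjusted p under 0.05 was 32 when dKO replicate 3 was left out and 0 to 2 when any other library was, and the median ran from 0.15 (dKO replicate 1 left out) to 0.39 (dKO replicate 3 left out). Over all tested genes 6.27% were higher at that p and 49.2% were below 0.

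Of the snoRNA host genes other than the members, 18 were tested, with a median log2 fold change of 0.07. Snhg14, the host transcript of the imprinted Prader-Willi region, was the single one at an unadjusted p under 0.05, with 552, 636 and 557 normalized counts in ctl and 396, 486 and 361 in dKO. Its groups did not overlap (log2 fold change -0.49 ± 0.14 SE, edgeR adjusted p = 0.31). Snhg8 had 164, 169 and 159 in ctl and 188, 270 and 199 in dKO, without overlap, and an unadjusted edgeR p of 0.0539. Of the 18 host genes, 12 had a log2 fold change above 0 and 6 below. Counted with the members, 2 host genes had an unadjusted p under 0.05, beside 11.5% of all tested genes, with a median of 0.04. The count was 4 when dKO replicate 1 was left out and 1 when ctl replicate 2 was, and the median was -0.03 when dKO replicate 2 was left out.

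Snhg11, Miat and Pantr1 overlapped between the groups. Like 5 other members, they had a higher coefficient of variation in dKO than in ctl; it was lower in dKO for Neat1 alone, and for Rian the values were close (8.61% and 8.89%). Snhg11 had 267, 268 and 296 normalized counts in ctl and 172, 286 and 229 in dKO. Its coefficient of variation was 5.89% in ctl and 24.9% in dKO, and its log2 fold change of -0.27 (interval -0.72 to 0.18, edgeR adjusted p = 0.617) became -0.47 without dKO replicate 2, with an unadjusted p of 0.0375, and -0.10 without dKO replicate 1, with an unadjusted p of 0.569. Miat had 136, 208 and 142 in ctl and 112, 294 and 172 in dKO, and dKO replicate 2 was the highest library. Its log2 fold change of 0.25 (interval -0.53 to 1.04, edgeR adjusted p = 0.813) turned to -0.19 without that library and was 0.53 without dKO replicate 1. Pantr1 had 222, 255 and 186 in ctl and 190, 295 and 178 in dKO, and dKO replicate 2 was again highest. Its means were equal to within the spread (log2 fold change 0.00, interval -0.53 to 0.53), and the value without dKO replicate 2 was -0.27. In each of the 3 genes dKO replicate 2, the library that carried Xist, was the highest dKO library, as it was for Rian and Gas5.

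**Figure D3:**
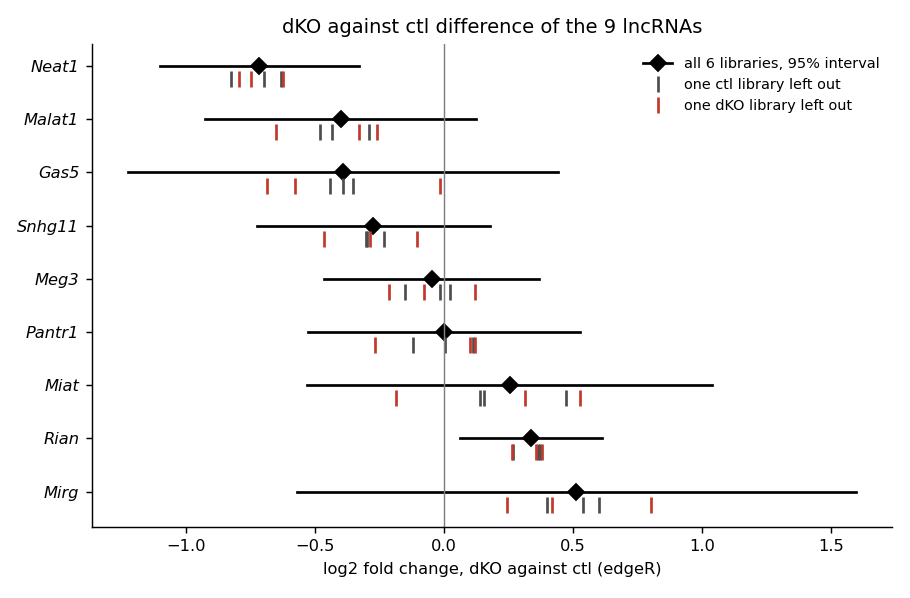
Log2 fold change of each lncRNA in dKO against ctl from edgeR, with its 95% interval (black) and, below it, the 6 values with 1 ctl (grey) or 1 dKO (red) library left out. The intervals of Neat1 and Rian do not reach 0, and the values of Meg3, Pantr1 and Miat fall on both sides of 0 when single libraries are left out.

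The proteins that Neat1 and Malat1 gather were examined next. Of 21 tested paraspeckle proteins 17 had a log2 fold change below 0, with a median of -0.07, and 4 were lower at an unadjusted p under 0.05, none after adjustment. Over all tested genes 49.2% were below 0, with a median of 0.01, and 5.27% were lower at that p. Among them were Fam98a (-0.31) and Ewsr1 (-0.24), an RNA-binding protein. Ewsr1 had 4322, 4136 and 3894 normalized counts in ctl and 3388, 3610 and 3430 in dKO, without overlap. Leaving out any single library gave 0 to 2 paraspeckle genes with an unadjusted p under 0.05, and medians from -0.13 (ctl replicate 3) to -0.02 (ctl replicate 2). Of 25 nuclear speckle genes 19 were below 0, with a median of -0.06, and 4 were lower at an unadjusted p under 0.05. Clk4, a kinase of splicing factors, was at -0.33, the speckle scaffold Srrm2 at -0.37 and the 3′ splice site factor U2af1 at -0.28. The count of speckle genes was 1 when either ctl replicate 2 or dKO replicate 2 was left out, and 2 to 4 when any other library was, with medians from -0.10 (dKO replicate 3) to -0.04 (ctl replicate 2).

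The genes next to the members gave the following values. Of 13 tested protein-coding neighbours 12 had a log2 fold change below 0, with a median of -0.08, and Zbtb37 was the single one at an unadjusted p under 0.05 (0 genes when ctl replicate 2 was left out, 3 when ctl replicate 1 was). Over all tested genes 49.2% were below 0, and 11.5% had an unadjusted p under 0.05. Zbtb37 starts head to head with Gas5 and had 952, 925 and 745 normalized counts in ctl and 492, 730 and 665 in dKO. Like Gas5 it was lowest in dKO replicate 1, and the genes share 428 bases in which reads cannot be assigned by strand. Frmd8, beside Neat1, had 3417, 5117 and 3906 in ctl and 3749, 2922 and 2363 in dKO, and its groups overlapped (log2 fold change -0.46, edgeR adjusted p = 0.44). Tgfbrap1, near Pantr1, was at -0.22 (edgeR adjusted p = 0.495).

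Of the other listed brain lncRNAs, 27 were tested, with a median log2 fold change of 0.02. At an unadjusted p under 0.05, 4 were lower and 1 was higher. Kcnq1ot1, the antisense RNA that silences the imprinted Kcnq1 region in cis, had 478, 536 and 391 normalized counts in ctl and 218, 326 and 302 in dKO (log2 fold change -0.73 ± 0.19 SE, edgeR adjusted p = 0.291). Sox2ot, the transcript that spans the stem cell factor gene Sox2, had 4166, 5807 and 4321 in ctl and 3576, 3119 and 2686 in dKO (-0.61 ± 0.17 SE, adjusted p = 0.301). Neither overlapped between the groups. Counted with the members, 7 genes of this list had an unadjusted p under 0.05, with a median of 0.01. The count was 4 when dKO replicate 1 was left out and 10, with a median of -0.12, when dKO replicate 2 was. Over all tested genes 5.27% were lower and 6.27% higher at that p.

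Over the whole table, the test covered 1695 lncRNA genes. The median over them, as log2 fold change, was -0.18, with 65.3% below 0, against a median of 0.02 and 46.6% for 14463 protein-coding genes. Leaving out dKO replicate 1 moved the lncRNA median to -0.09 and leaving out dKO replicate 2 to -0.28. At an unadjusted p under 0.05, 8.2% of lncRNA genes were lower and 2.12% higher, while 4.78% of protein-coding genes were lower and 6.91% higher. Among genes whose normalized counts averaged 100 or more the figures were 20.1% lower and 3.47% higher for 259 lncRNAs, and 5.48% and 6.1% for 11436 protein-coding genes. Classes were not compared by a test, since genes are not independent. The median of the 9 members was -0.05. Neat1 (-0.72), Malat1 (-0.40), Gas5 (-0.39) and Snhg11 (-0.27, classed as protein-coding) lay below the lncRNA median, and Meg3 (-0.05), Pantr1 (0.00), Miat (0.25), Rian (0.34) and Mirg (0.51) above it. All lncRNA genes together took 1.22 to 1.30% of reads in ctl and 0.909 to 1.14% in dKO, of which Malat1 held 13.7 to 21.8% and Neat1 6.63 to 11.0% of a library's lncRNA reads.

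**Figure D4:**
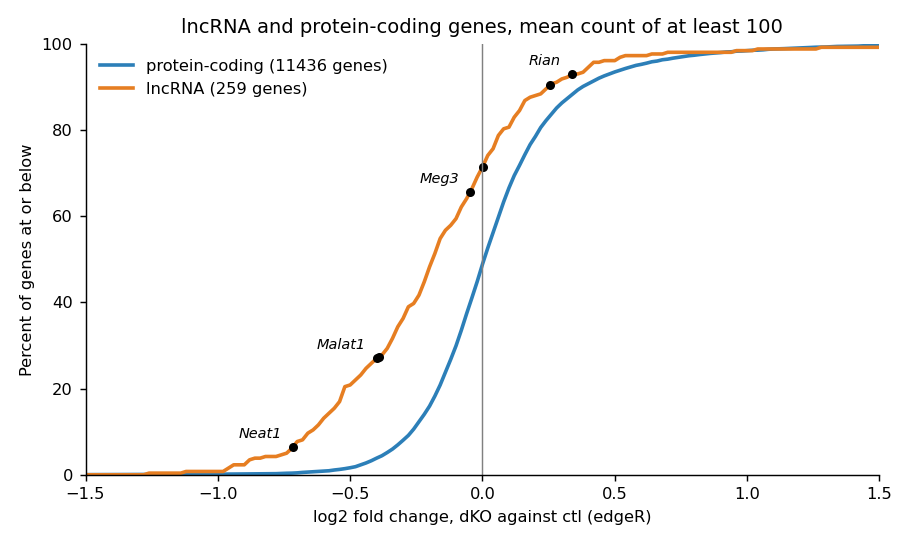
Percent of genes (vertical axis) whose log2 fold change in dKO against ctl is at or below the value on the horizontal axis, for lncRNA (orange) and protein-coding (blue) genes whose normalized counts averaged 100 or more. Black points are the 7 members that belong to the lncRNA curve; it lies to the left of the protein-coding curve, with medians of -0.19 and 0.01.

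Markers of other cell types and of RNA composition were set beside Neat1 in every library. Of 12 oligodendrocyte markers 10 had a log2 fold change below 0, with a median of -0.42, and 3 were lower at an unadjusted p under 0.05. These were Aspa (-0.72), Mog (-0.60) and Opalin (-0.62), genes of mature oligodendrocytes. Over all tested genes 49.2% were below 0, and at that p 5.27% were lower and 6.27% higher. With 1 library left out the oligodendrocyte count with such a p ran from 1 (ctl replicate 2, median -0.26) to 6 (dKO replicate 1, median -0.58), and it was 2 for dKO replicate 2 or dKO replicate 3. The summed oligodendrocyte level was 0.88, 1.15 and 0.975 of its ctl mean in ctl and 1.09, 0.86 and 0.66 in dKO, and so overlapped. Neat1 was at 1.11, 1.03 and 0.859 of its own ctl mean in ctl and at 0.533, 0.633 and 0.663 in dKO. In dKO replicate 1, in which Neat1 was lowest, the oligodendrocyte sum was above its ctl mean. In dKO replicates 2 and 3 both Neat1 and the oligodendrocyte sum were below their ctl means. The microglia sum was 2.91, 1.29 and 3.59 times its ctl mean in the dKO libraries and the astrocyte sum 1.26, 3.47 and 1.83 times. The neuron, endothelial and mural sums overlapped between the groups, with 13 of 14, 11 of 11 and 7 of 8 genes above 0 and medians of 0.38, 0.24 and 0.28. At an unadjusted p under 0.05, 1, 0 and 0 of these genes were higher. When dKO replicate 2 was left out, 7 endothelial and 3 mural genes had such a p, and the neuron count was 2. When dKO replicate 3 was left out, the neuron count was 5. With 1 library left out, the neuron median ran from 0.18 (dKO replicate 2) to 0.51 (dKO replicate 3), the endothelial median from 0.02 (dKO replicate 3) to 0.52 (dKO replicate 2) and the mural median from 0.08 (dKO replicate 1) to 0.55 (dKO replicate 2). None of these marker genes was at 0 in any library. Reads of mitochondrial genes were 3.64 to 4.77% in ctl and 4.65 to 7.08% in dKO. Of 12 immediate early genes 11 were above 0, with a median log2 fold change of 0.24. At an unadjusted p under 0.05, 1 of them (Junb, 0.38) was higher. With 1 library left out that count ran from 0 (ctl replicate 1 or dKO replicate 3) through 2 (ctl replicate 3) to 4 (dKO replicate 2). The median then ran from 0.09 (dKO replicate 3) to 0.34 (dKO replicate 2). The part of these differences in the values of Neat1, Rian and the lncRNA class was not tested.

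**Figure D5:**
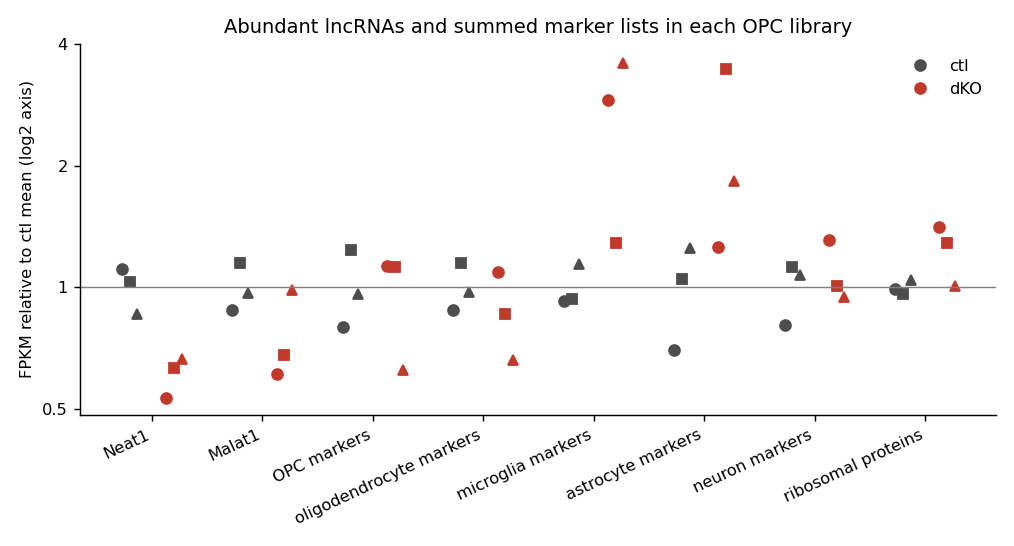
FPKM of Neat1 and Malat1 and summed FPKM of 5 marker lists and of the ribosomal proteins in each OPC library, relative to the mean of the 3 ctl libraries (log2 axis), with circles, squares and triangles for replicates 1, 2 and 3. Neat1, microglia and astrocyte markers do not overlap between ctl (grey) and dKO (red), and the other items do.

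For each member the most similar gene was the non-member with the smallest mean absolute difference of centred log2 CPM (library-scaled counts) over the 6 libraries, among 11885 genes whose normalized counts averaged 100 or more. For Neat1 this was Leng8, with a mean difference of 0.087 and an own log2 fold change of -0.54 (edgeR adjusted p = 0.313). For Malat1 it was Ahsa2 (0.067), for Rian the glycolytic enzyme gene Tpi1 (0.033) and for Meg3 Zfp667 (0.037). The nearest genes of Snhg11, Pantr1, Mirg, Miat and Gas5 were Rbm4b (0.049), Lmtk3 (0.052), Bcas1 (0.077), Per3 (0.085) and Kif24 (0.098). Among the members themselves Neat1 and Malat1 were nearest to each other (0.17), as were Meg3 and Snhg11 (0.17) and Rian and Mirg (0.24). These distances describe 6 libraries that fall into 2 groups.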

How the data were processed

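RNA of sorted OPCs was sequenced after poly(A) selection (3 ctl and 3 dKO libraries). The authors aligned reads with HISAT2, counted them per gene with featureCounts, and deposited raw counts and FPKM, which divide by exon length and library total. The neuron table holds expected counts, deposited by the authors per mRNA transcript; it was read only to look for the members. The authors' columns of fold changes and p-values were not used. The members and gene lists were chosen with earlier results of these data known.

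Raw counts were tested in R 4.3.3 with edgeR 4.0.16 (TMM scaling, quasi-likelihood test, Benjamini-Hochberg adjustment over the 17364 genes averaging 10 or more normalized counts); DESeq2 1.42.0 was an alternative. Normalized counts are counts divided by the TMM-scaled library size, times the mean of these sizes. Log2 CPM used a prior count of 2. SEs were obtained by dividing each log2 fold change by its root F statistic. The fit was tested on simulated data with known changes.

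Named genes were all members, up to 3 genes of each list by smallest p, all tested Dlk1-Dio3 genes, and the gene with the most similar pattern; 1 gene that this rule names is not reported here. Counts show read depth only: with 7 to 20 reads, Mirg is least precise. Replicates of a group differed beyond sampling noise (chi-square per gene at least 15.9). Alternatives were other scaling, other filters, a replicate block and leaving out each library.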

Additional observations from a re-analysis of the deposited data

How the results depend on the processing

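Of the 9 members Neat1, Malat1, Gas5, Snhg11, Rian and Mirg kept their direction in every alternative that gave a value; Mirg had none at a mean count of at least 100. Pantr1 was at -0.0028 with DESeq2, -0.0026 with RLE scaling, -0.0136 with library totals only, -0.0266 with the replicate block, and from -0.27 to 0.12 with 1 library left out (-0.12 without ctl replicate 3). Meg3 ranged from -0.21 to 0.12 (0.02 without ctl replicate 3, 0.12 without dKO replicate 1) and Miat from -0.19 to 0.53. Genes with an adjusted p under 0.05 numbered 1 in the edgeR fit, 293 with DESeq2, 87 without the filter, 27 with the replicate block, and 1 to 199 with 1 library left out (199 without dKO replicate 2, 2 without dKO replicate 3); Neat1 passed this threshold with DESeq2 only. Genes with an unadjusted p under 0.05 numbered 2003, and 1106 to 2292 with 1 library left out (1106 without ctl replicate 2). Members with one numbered 2, and 1 to 3 with 1 library left out (1 without ctl replicate 2, 3 without dKO replicate 3). The lncRNA genes that were lower numbered 139, 240 without the filter, 48 at a mean count of at least 100, and 93 to 149 with 1 library left out (93 without ctl replicate 2), and the median over lncRNA genes was -0.28 to -0.09, alternatives added after seeing the data; the filters change which genes are tested, and the other causes were not tested. Same-numbered ctl and dKO libraries deviated with correlations of -0.113, 0.155 and 0.12, and ctl replicate 1 correlated more with dKO replicate 3 (0.22) than with its own number. Deviations were centred within each group of 3 libraries, so these correlations cannot decide whether the numbers pair the samples. With the replicate block Neat1 was at -0.71 and Rian at 0.34, and 2 members had an unadjusted p under 0.05. The alternatives for neurons were not run, because no member is in that table. At 0.1 for the smallest exact p, the permutation test over libraries cannot pass 0.05.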
